A study of Mus musculus with 2 samples.

Results

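The small leucine-rich proteoglycans are secreted matrix proteins, and 10 of their genes are described here across the cells of 2 single-cell libraries of sorted mouse brain cells: Dcn, Lum, Bgn, Fmod, Ogn, Prelp, Aspn, Omd, Epyc and Chad. They were taken by gene symbol and not by a cut on a measured value, but earlier results of these data were known when they were chosen. Each symbol matched exactly 1 feature, and they are 10 of the 25827 genes in the files. 1 library came from adult IL34LacZ/LacZ mice, which carry the lacZ allele of Il34 on both chromosomes, and 1 from adult IL34LacZ/+ mice, which carry it on 1 chromosome. They are called the homozygous-labelled and the heterozygous-labelled library. Both groups therefore carry a lacZ allele, and no mouse without it was sampled here. The sorts took mural cells and fibroblasts (CD13+ and/or CD140a+O4-), endothelial cells (CD31+), astrocytes (ACSA-2+), border-associated macrophages (CD11bhiF4/80+) and microglia (CD11b+F4/80hi). How many mice were pooled into a library, and of which sex, is not stated in the labels.

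These proteins share a core of leucine-rich repeats that binds collagen fibrils and growth factors, and most of them carry chondroitin, dermatan or keratan sulfate chains. They are grouped by sequence: decorin (Dcn), biglycan (Bgn) and asporin (Aspn) form class I, lumican (Lum), fibromodulin (Fmod), PRELP (Prelp) and osteomodulin (Omd) class II, epiphycan (Epyc) and osteoglycin (Ogn) class III, and chondroadherin (Chad) belongs to class IV. In the brain, collagen fibrils lie mainly in the meninges, around vessels and in the choroid plexus stroma, where fibroblasts make them. Mural cells are the pericytes and smooth muscle cells of the vessel wall.

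Most of the genes lie in 3 groups of neighbours (GRCm38, GENCODE vM21). Aspn (chr13:49544443-49567565), Omd (chr13:49582462-49592822) and Ogn (chr13:49608046-49624501) stand on the plus strand in this order, 14.9 kb and 15.2 kb apart. Dcn (chr10:97479609-97518143), Lum (chr10:97565128-97572703) and Epyc (chr10:97644068-97682454) form the second group, also on the plus strand, with 46.98 kb between Dcn and Lum. Prelp (chr1:133910304-133921414, minus strand) and Fmod (chr1:134037254-134048277, plus strand) are 116 kb apart. Bgn (chrX:73483602-73495933) and Chad (chr11:94565047-94569127) stand apart from the other members. RefSeq promoter sequence of GRCm38.p6 was matched for 8 of the 10 members, all but Dcn and Lum. The 30 bases from position -40 to -11 before the start of transcription follow, 5′ to 3′, for the 3 neighbours on chromosome 13, of which Aspn led in mural cells and Ogn in one set of fibroblasts, and for Bgn and Chad, the 2 members with a searched motif there. Capitals mark that motif.
Aspn, chr13:49544403-49544432, plus strand: gtctagagtttagctagaagttttggctat
Omd, chr13:49582422-49582451, plus strand: aaaatgaaaataaaaacagtaatcagtaca
Ogn, chr13:49607975-49608004, plus strand: ccacatgggatttaaactgttgggccctga
Bgn, chrX:73483561-73483590, plus strand: ccctctCCGCCCcgtcccctccctgtcggc
Chad, chr11:94565007-94565036, plus strand: tcaaggctgcccTATAAAtgggccgggaga
The motifs searched, on both strands, were TATAAA, the letters of a TATA box, and CCGCCC, the core of a GC box. Chad holds TATAAA with its first base at -28, and 2.66% of the 32851 promoters in the table hold it in the same 30 bases. Bgn holds CCGCCC at -34, as 9.54% of promoters do in this window. In the whole 300 bases, TATAAA is in 13.6% and CCGCCC in 35.7% of promoters. These matches describe the letters and no measurement here bears on their use.

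The homozygous-labelled matrix held 18858 barcodes and 95505407 molecules (unique molecular identifiers, UMIs), and the heterozygous-labelled matrix 17168 barcodes and 87394167 UMIs. After filtering, 9632 and 8220 cells were left, with medians of 3679 and 3541 UMIs. Between 37.7% and 72.5% of a member's UMIs in a library lay in these cells, with Epyc in the heterozygous-labelled library lower at 33.1%. Clustering without the 10 members gave 33 clusters, of which 27 could be named from markers into 16 classes. The 6 unnamed clusters held 20.1% of homozygous-labelled and 18.7% of heterozygous-labelled cells. Of the sorted types, astrocytes were nearly absent, with 15 and 14 astrocyte-like cells. Levels below are CPM (counts per 1000000), the UMIs of a gene per 1000000 UMIs of that group of cells in that library, with exact Poisson 95% intervals in parentheses. Each genotype has a single library, so no test was made, and the intervals cover counting error within a library only. Il34, the targeted gene, was still counted in the homozygous-labelled library, at 104 and 121 CPM in mural-like and 24.3 and 29.3 CPM in fibroblast-like cells. Which part of Il34 the lacZ allele replaces is not stated in the labels, so these 3′ counts were not used to check them. The kit counts the 3′ end of each molecule once, so levels are not divided by gene length.

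Fibroblasts held most of the family. 8 of the 10 genes were highest in fibroblast-like cells among the 12 classes with at least 50 cells in each library, Prelp was highest in ependymal-like cells and Aspn in mural-like cells. Together the 10 genes reached 5692 CPM (5635 to 5749) in 1001 homozygous-labelled and 4538 CPM (4477 to 4600.4) in 718 heterozygous-labelled fibroblast-like cells. Mural-like cells followed with 2253 and 1562 CPM, ependymal-like cells with 545 and 456 CPM, and microglia-like cells had 62.4 and 49.7 CPM. A single fibroblast-like cell held UMIs of 4.16 members on average in the homozygous-labelled and 3.97 in the heterozygous-labelled library. Cells with at least 3 members made up 89.6% and 84.5% of the class.

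Microglia, which are not known as a source of these proteins, set the background of free RNA. Dcn was found in 5.26% of homozygous-labelled and 4.64% of heterozygous-labelled microglia-like cells, at a median of 3054.5 and 2687 UMIs per cell in their main cluster, and its level there was 18.6 and 16.01 CPM. Bgn was at 15.9 and 8.85 CPM and Ogn at 12.97 and 7.58 CPM in the same cells. The other 7 members were below 9 CPM there in each library. Levels near these values in other cells are read as background.

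**Figure D1:**
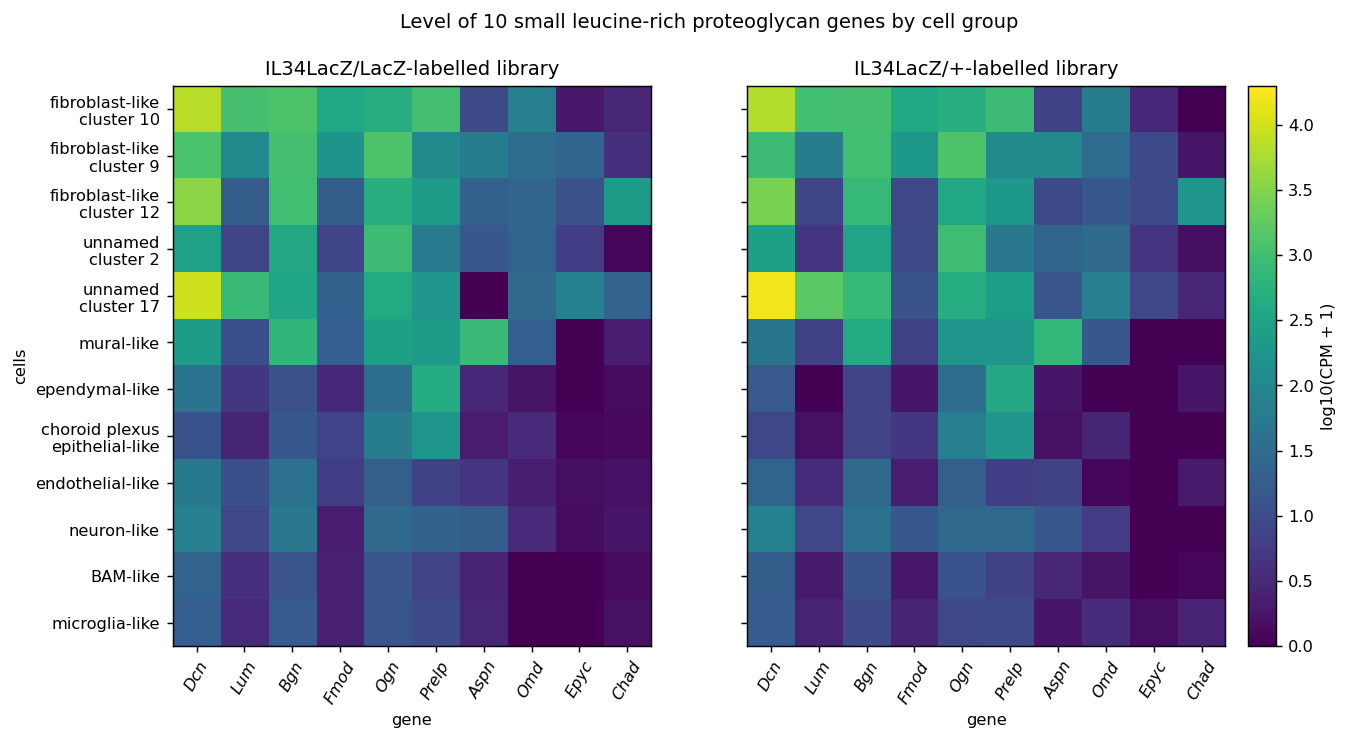
Levels of the 10 genes (columns) in 12 groups of cells (rows), with the homozygous-labelled library on the left and the heterozygous-labelled one on the right; colour is log10(CPM + 1) on 1 scale, with no replicates. Fibroblast clusters are bright for Dcn, Bgn and Ogn, mural-like cells for Aspn (782 and 711 CPM) and ependymal-like cells for Prelp (448 and 399 CPM).

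The fibroblast-like class consisted of 3 clusters that differed in which members they held. Cluster 10 (354 homozygous-labelled and 199 heterozygous-labelled cells) was led by Slc7a11, Slc6a13 and Apod. Cluster 9 (380 and 351 cells) was led by Mfap4, Penk and Clec11a. Cluster 12 (267 and 168 cells) was led by Krtdap, Smoc2 and Myoc. Clusters 2, 17 and 26 scored highest for fibroblast markers as well but were not named, since no fibroblast marker was among their 50 leading genes. They are left out of the fibroblast-like class. Cluster 2 (857 and 705 cells) was led by Bche, Ccn3 and F3. Cluster 17 (195 and 102 cells) mixed bone genes such as Bglap with pituitary hormone genes (Prl, Pomc), and cluster 26 (62 and 21 cells) was led by the interferon-response genes Ifit1, Ifit3 and Cxcl10. Median depth differed between them: it was 2280.5 and 2132 UMIs per cell in cluster 10 and 8341 and 7578.5 in cluster 12, so shares of cells are also given after thinning to 2000 UMIs, over the cells with at least that many. This leaves out many cells of cluster 10, where 215 of 354 and 107 of 199 were thinned, and few of cluster 9 (374 of 380 and 340 of 351) and cluster 12 (257 of 267 and 158 of 168). The comparison of clusters could be repeated only in part under another filter: at a mitochondrial limit of 5%, 4 of the 10 members kept their highest fibroblast cluster. Only clusters with a matching cluster under the new limit were compared, and a member whose cluster had no match counts as not keeping it. The 4 of 10 therefore does not show that the order of the clusters changed.

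Among the class I genes, Dcn was the most abundant member in fibroblast-like cells and differed several-fold between their clusters. Decorin binds collagen I fibrils and sets their spacing and width. It had 6851 CPM (6692 to 7013) in homozygous-labelled and 6305 CPM (6089.6 to 6527) in heterozygous-labelled cells of cluster 10. Cluster 12 followed with 3559 and 2743 CPM, cluster 9 with 1202 and 881 CPM and cluster 2 with 292 and 277 CPM. This order was the same in each library, with no overlap of the counting intervals between clusters. After thinning, 97.7% and 97.2% of the thinned cluster 10 cells held a Dcn UMI, against 54.8% and 51.8% in cluster 9. Without thinning the shares were 97.2% and 98.5% in cluster 10 and 75% and 68.4% in cluster 9. The level in unnamed cluster 17 was higher still, at 9481 and 16074 CPM, and this cluster of 1.66% of the kept cells held 34.7% of all Dcn UMIs.

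Bgn, the closest relative of Dcn, was spread more evenly. Biglycan also binds collagen and, when free, Toll-like receptors. It had 1268 and 1063 CPM in cluster 10, 1082 and 981 in cluster 9, 993 and 759 in cluster 12 and 394 and 327 in cluster 2. Highest and lowest of the 3 named clusters differed by less than 1.5-fold in each library, whereas for Dcn they differed over 5-fold. In cluster 9, 94.2% of homozygous-labelled and 95.2% of heterozygous-labelled cells held Bgn. Aspn, whose product binds collagen and TGF-beta, was a minor gene in fibroblasts: cluster 9 had 64.1 and 104 CPM, cluster 2 13.7 and 23.4 CPM and cluster 10 8.79 and 5.86 CPM.

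The class II genes were highest, among the 3 named clusters, in cluster 10. Lumican regulates collagen fibril assembly, best known in the cornea. Lum had 1073 CPM (1011 to 1138) in homozygous-labelled and 983 CPM (899 to 1073) in heterozygous-labelled cells of cluster 10, against 109 and 64.5 CPM in cluster 9 and 17.7 and 6.84 CPM in cluster 12. Clusters 10 and 12 both held Dcn at a high level, and they stood far apart in Lum: thinned to equal depth, 74.4% and 75.7% of cells held Lum in cluster 10, and 1.95% and 1.27% in cluster 12. Fibromodulin also acts in fibril assembly. Fmod followed the same division, with 376 and 371 CPM in cluster 10, 167 and 192 CPM in cluster 9, and 17.3 and 7.60 CPM in cluster 12. PRELP anchors basement membranes to the underlying collagen through heparan sulfate. Prelp was at 1017 and 879 CPM in cluster 10, 218 and 192 CPM in cluster 12 and 111 and 110.4 CPM in cluster 9. Omd, a keratan sulfate proteoglycan of bone, stayed low, with 74.2 and 62.5 CPM in cluster 10 and 24.6 to 32.8 CPM in homozygous-labelled and 14.4 to 30.6 CPM in heterozygous-labelled cells of the other 2.

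The class III gene Ogn ran the other way. Osteoglycin, also called mimecan, was first described in bone and also acts on collagen fibrils. Ogn had 1258 CPM (1219.8 to 1297) in homozygous-labelled and 1240.1 CPM (1199 to 1282) in heterozygous-labelled cells of cluster 9, and 882 and 917 CPM in cluster 2. It was lower in cluster 10, at 472 and 488 CPM, and in cluster 12, at 513 and 357 CPM. Thus the cluster with the most Dcn and Lum among the named ones was among those with the least Ogn, while 83.96% and 84.7% of thinned cluster 9 cells held it. In cluster 2, Ogn outnumbered every other member: it made up 52.5% of the UMIs of the 10 genes in homozygous-labelled and 55.8% in heterozygous-labelled cells.

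Epyc and Chad, both best known from cartilage, were rare. Epyc had 274 UMIs in all kept cells, 269 of them in the 6 clusters that scored for fibroblast markers. It reached 76.6 and 7.60 CPM in cluster 17 and 24.6 and 8.38 CPM in cluster 9. At most 27 homozygous-labelled and 14 heterozygous-labelled cells of a cluster held an Epyc UMI, and in the heterozygous-labelled library all 4 Epyc UMIs of cluster 17 lay in 1 cell. Chad lay almost wholly in 1 cluster. 92.5% of its 903 UMIs lay in cluster 12, which held 2.44% of the cells, at 239.5 CPM (221 to 259.6) in homozygous-labelled and 183 CPM (161 to 208) in heterozygous-labelled cells. Only 19.5% (52 of 267) and 14.3% (24 of 168) of the cells in that cluster held it, and those that did held a median of 4.50 and 4.50 UMIs, up to 81 and 47. Most cluster 12 cells thus held no Chad UMI, and a minority held many.

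**Figure D2:**
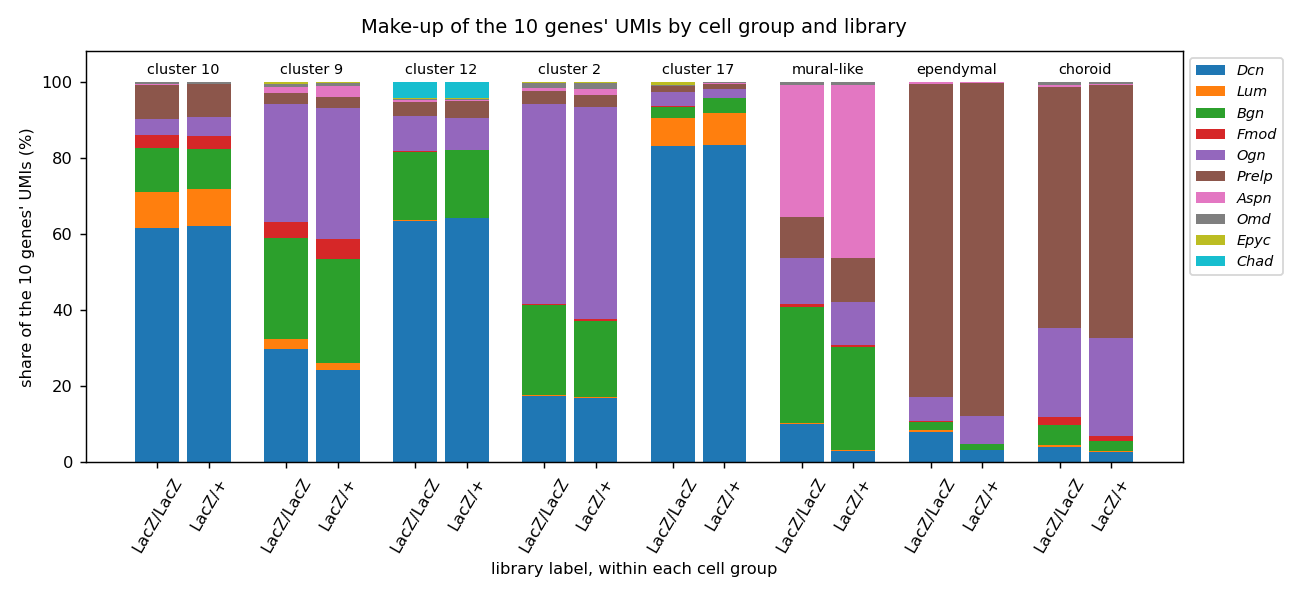
Stacked bars give each gene's share (%) of the UMIs of the 10 genes in 8 groups of cells, with the homozygous-labelled (LacZ/LacZ) bar left of the heterozygous-labelled (LacZ/+) bar in each pair; each bar is 1 library. Dcn fills over 60% in clusters 10, 12 and 17, Ogn over 50% in cluster 2, Aspn and Bgn together over 60% in mural-like cells, and Prelp over 60% in ependymal-like and choroid plexus cells.

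Subclusters of the fibroblast-scored cells split cluster 10 further. Subcluster 2 (307 homozygous-labelled and 165 heterozygous-labelled cells, led by Slc7a11, Col15a1 and Lama1) held the high Dcn and Lum, with Lum at 1396 and 1167 CPM and Prelp at 1274 and 1019 CPM. Subcluster 11 (34 and 21 cells, led by Ranbp3l, Cyp26b1 and Nnat) had a different set. Its Fmod was 741 CPM (618 to 880.5) and 949 CPM (741 to 1197), the highest of the 13 subclusters, and its Omd 214 and 187 CPM was also the highest. Lum was lower there, at 231 and 147 CPM, and Ogn was 1226 and 1082 CPM, against 359 and 414 CPM in subcluster 2. Subcluster 11 was the one with the highest score for the arachnoid fibroblast list (Aldh1a2, Slc6a13, Angptl2, Crabp2, Wnt6, Ptgds), a mean log2 enrichment of 2.90. Subcluster 2 had the highest score for the pial list, 1.04, with an arachnoid score of 1.14 and a pericyte score of 1.53.

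The bone-like subcluster 6 (139 and 97 cells), led by Bglap, Bglap2 and Ibsp, mostly came from cluster 17. Bglap and Ibsp encode osteocalcin and bone sialoprotein of mineralised bone. It held the highest Dcn, 12279.9 and 14458 CPM, with Lum at 1215 and 1454 CPM. Epyc there was 122 CPM (100 UMIs) in homozygous-labelled and 12.02 CPM (7 UMIs) in heterozygous-labelled cells. The 3 largest subclusters drawn mainly from cluster 2 (0, 3 and 4) held Ogn first, between 602 and 1039.7 CPM in homozygous-labelled and 755 and 1112 CPM in heterozygous-labelled cells, and had Lum and Fmod below 30 CPM.

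**Figure D3:**
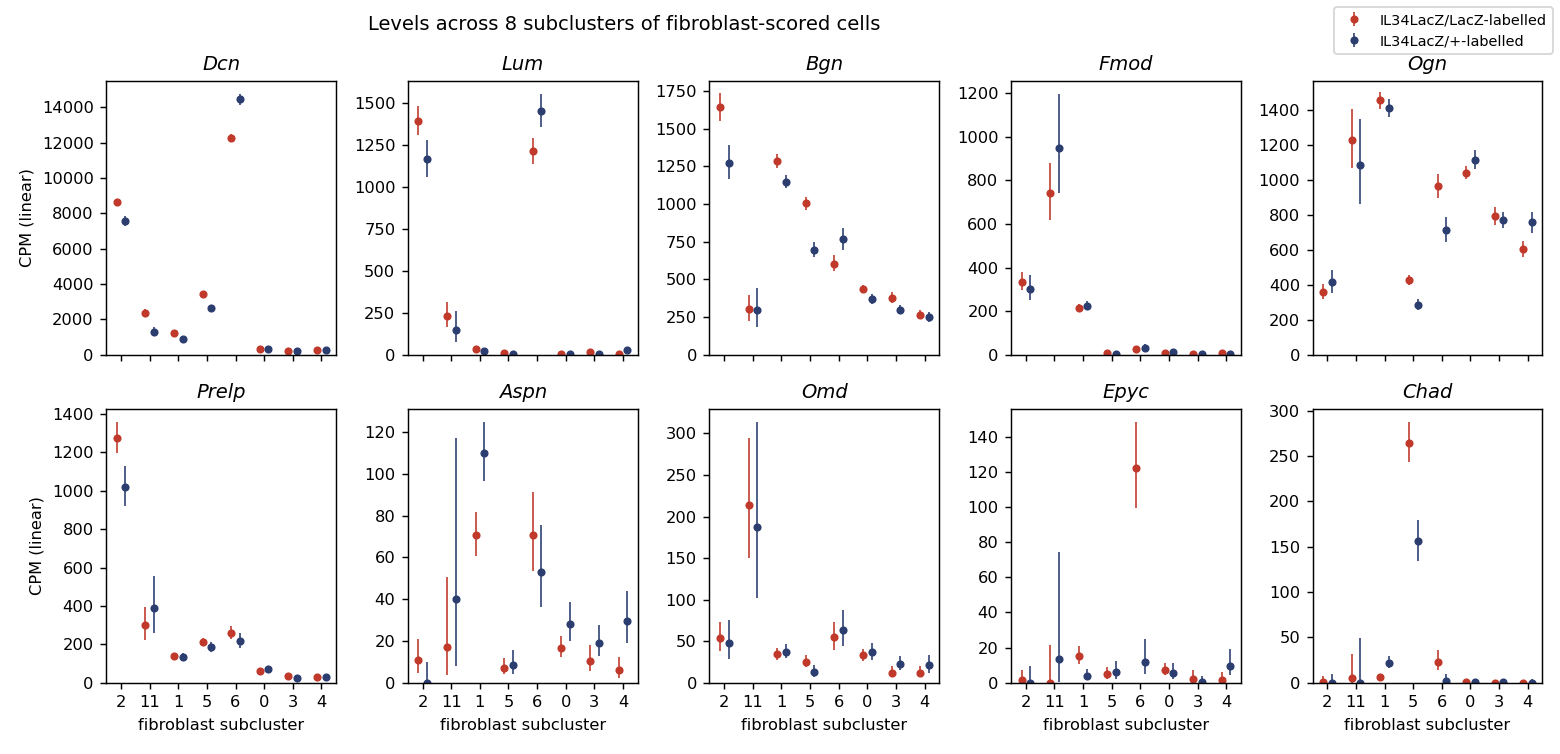
Level (CPM, linear axis) of each gene in 8 subclusters of fibroblast-scored cells, with the homozygous-labelled library in red left of the heterozygous-labelled one in blue; bars are exact Poisson 95% intervals and each point is 1 library. Lum and Prelp peak in subcluster 2 (Lum also in 6), Fmod and Omd in subcluster 11, Ogn in 1, 11 and 0, and Chad in subcluster 5.

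In mural cells Aspn came first. It had 782 CPM (725 to 843) in 357 homozygous-labelled and 711 CPM (639 to 789.5) in 191 heterozygous-labelled mural-like cells, against 40.03 and 65.4 CPM in fibroblast-like and 1.89 and 0.843 CPM in microglia-like cells. Mural-like cells were 3.07% of the kept cells and held 52.3% of the Aspn UMIs. An Aspn UMI was found in 64.99% and 64.9% of them, and in 0.669% and 0.265% of microglia-like cells. Its neighbour Omd was at 18.2 and 14.1 CPM in the same cells, and Ogn at 277 and 176 CPM. Lum (10.2 and 6.06 CPM), Fmod (18.2 and 6.06 CPM), Epyc and Chad had at most 16 UMIs per library there. In microglia-like cells Lum was at 2.43 and 1.69 CPM and Fmod at 1.35 and 1.69 CPM.

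Aspn was not tied to the smooth muscle side of the class. Subclusters 0 and 1 of the mural-like cells, with the pericyte list above the smooth muscle list, had 759 and 1000 CPM and 1092 and 1224 CPM. Subcluster 3, led by Cdh4, Asb2 and Myom1 and the highest for the smooth muscle list, had 1030.5 CPM (802 to 1304) and 1154 CPM (862 to 1513). The intervals of these 3 subclusters overlap in the heterozygous-labelled library. Ogn and Prelp were higher in subclusters 3 and 4 than in 0 and 1: Prelp had 508 and 399 CPM in subcluster 3, against 208 and 117 CPM in subcluster 0. Subcluster 2 (34 and 31 cells) was led by the endothelial genes Gkn3, Ly6c1 and Ly6a, had the lowest Aspn of the 5 subclusters with over 10 cells in each library, and held 24.7% of the mural UMIs in the homozygous-labelled and 36.4% in the heterozygous-labelled library.

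**Figure D4:**
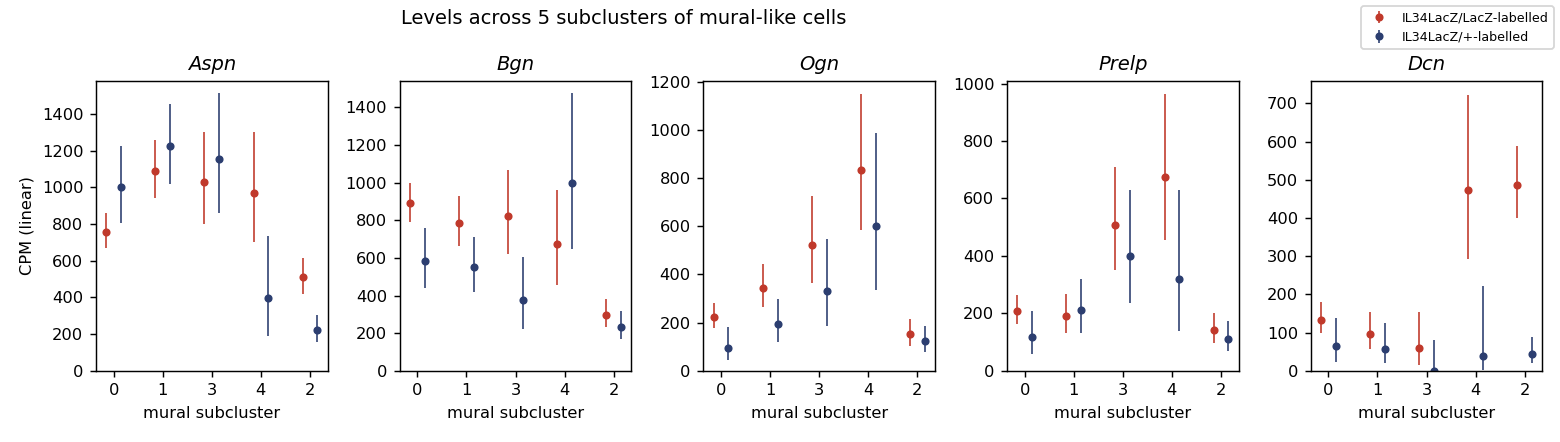
Level (CPM, linear axis) of 5 genes in 5 subclusters of mural-like cells, with the homozygous-labelled library in red left of the heterozygous-labelled one in blue; bars are exact Poisson 95% intervals and each point is 1 library. Aspn is highest in subclusters 0, 1 and 3 of the heterozygous-labelled library and lowest in subcluster 2, and Dcn of the homozygous-labelled library is highest in subclusters 2 and 4.

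Epithelial cells of the ventricles held Prelp. Ependymal-like cells had 448 CPM (424 to 473) in the homozygous-labelled and 399 CPM (364 to 436) in the heterozygous-labelled library, and choroid plexus epithelial-like cells 177 and 176 CPM. The ependymal values lie above those of fibroblast clusters 9 and 12 and below that of cluster 10. A Prelp UMI was found in 94.01% and 85.4% of ependymal-like cells, and in 52.3% and 46.3% after thinning, against 1.25% and 1.20% of thinned microglia-like cells. The largest choroid plexus cluster, with 7.18% of cells, held 35.03% of all Prelp UMIs, and the 6 fibroblast-scored clusters 37.8%. For Dcn the 6 clusters held 95.9%. Ogn was the second member of choroid plexus cells, with 65.4 and 67.5 CPM. Fmod was at 6.34 and 3.96 CPM, above its 1.35 and 1.69 CPM in microglia-like cells. The 8 members other than Prelp and Ogn were at or below 14.1 CPM there.

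Endothelial-like cells and macrophages had little of the family. In endothelial-like cells (1726 and 1827), Dcn was at 53.2 and 23.3 CPM, Bgn at 40.6 and 30.04 CPM and Ogn at 18.9 and 18.8 CPM, and the other 7 at or below 10.4 CPM. BAM-like cells, the border-associated macrophages, were near the microglial level, with Dcn at 22.2 and 17.7 CPM and Bgn at 12.5 and 11.5 CPM.

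Over the 28 clusters with at least 50 cells, both libraries together, the levels of some members ran in parallel and others did not. Pearson's r of log2(CPM + 10) was 0.927 for Dcn and Omd, 0.896 for Bgn and Ogn and 0.843 for the neighbours Dcn and Lum. For Dcn and Ogn, which differed in order among the named fibroblast clusters, it was 0.811. Aspn had lower values: its r was 0.593 with Bgn, its highest with any member, and 0.339 with Dcn. It was 0.529 with Ogn, 0.473 with its neighbour Omd and 0.154 with Lum. Chad was low as well, from 0.108 with Aspn to 0.558 with Dcn. All clusters share the same 2 libraries, and the shared lack of these genes in most clusters enters each r. Among 9996 genes, the most like Dcn were Serping1 (0.953), which encodes the C1 inhibitor, Col3a1 (0.948) and Cyp1b1 (0.948). Bgn was most like Col3a1 (0.973), Fstl1 (0.971) and Foxd1 (0.959), and Ogn most like the Wnt receptor gene Fzd2 (0.945), Bmp5 (0.944) and Col1a2 (0.943). For Lum these were Cemip (0.928), Pdgfra (0.883) and Crispld2 (0.875), and for Fmod Tbx18 (0.829), Cyp1b1 (0.829) and Fam180a (0.814). Prelp was most like Gpc4 (0.917), Ptpn13 (0.907) and Angptl2 (0.901). Aspn was most like Cspg4 (0.927), which encodes the pericyte proteoglycan NG2, and Gucy1a1 (0.885) and Gucy1b1 (0.854), which encode the subunits of the nitric oxide receptor guanylate cyclase. Omd, Epyc and Chad had fewer than 1000 UMIs and were left out of this step.

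The design sets the homozygous against the heterozygous genotype. In fibroblast-like cells 3 of the 10 members passed 1.5-fold, with at least 100 UMIs over both libraries, where 2.97% of the 9518 genes that met that count did so. Epyc (15.9 and 7.66 CPM, ratio 2.08, 1.41 to 3.13) and Chad (89.04 and 53.2 CPM, ratio 1.67, 1.44 to 1.95) were higher in the homozygous-labelled library. Aspn was lower there (40.03 and 65.4 CPM, ratio 0.612, 0.517 to 0.724). Dcn, at 2914 and 2024 CPM, had a ratio of 1.44, Lum of 1.47, Prelp of 1.30, Bgn of 1.16, Fmod of 0.905 and Ogn of 0.962. The median log2 ratio of the 10 was 0.33, against 0.00 over all genes with that count. The ratio of the sum was 1.25 (1.23 to 1.28). Past 2-fold there was 1 member, Epyc, where 0.336% of genes were. With equal weight per cluster or per cell, Epyc was the 1 member past 1.5-fold, and the log2 ratios with equal weight per cluster were -0.33 for Aspn and 0.41 for Chad.

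The make-up of the class in cells differed between the libraries as well. Cluster 10, the richest in Dcn, Lum and Prelp, was 35.4% of homozygous-labelled and 27.7% of heterozygous-labelled fibroblast-like cells. Cluster 9, the richest in Ogn and Aspn, was 37.96% and 48.9%, and cluster 12, the one with Chad, 26.7% and 23.4%. The sort and loading can set these shares, and with 1 library per genotype this cannot be told apart from genotype. The part of the make-up in the members' ratios was not tested. The percentages are shares of cells, whereas the ratios weigh each cell by its UMIs. Median depth was 2280.5 and 2132 UMIs in cluster 10, 7578.5 and 7078 in cluster 9 and 8341 and 7578.5 in cluster 12. Cluster 10 thus weighs less in the ratios than its share of cells. The lists of meningeal fibroblast genes differed in their medians: the ratio was 1.28 over 6 arachnoid and 1.24 over 5 pial genes, close to that of the members' sum, and 1.03 over 6 arachnoid barrier and 1.02 over 8 dural genes. Of the genes tested in these 4 lists only the dural Dkk2 passed 1.5-fold, and it was lower (12.4 and 19.03 CPM), where 2.97% of all genes passed. The 3 tested pericyte genes, Vtn (714 and 464 CPM), Rgs5 (18.5 and 8.75 CPM) and Ndufa4l2 (12.7 and 7.22 CPM), were past 1.5-fold higher in homozygous-labelled cells. The 3 tested smooth muscle genes had a median log2 ratio of -0.32: Tagln was higher (84.5 and 46.2 CPM), while Myl9 had 50.9 and 63.7 CPM and Mylk 42.8 and 54.7 CPM. The 10 mural markers summed to 921 and 609 CPM in the class, all 10 detected in each library. Most of each sum was Vtn (714 and 464 CPM), which was also among the leading genes of fibroblast subcluster 2. The part of these markers in the ratios was not tested. Equal weights for the 3 clusters gave a log2 ratio of the sum of 0.21, against 0.33 over all cells.

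Within cluster 10 no member reached the fold. In it, 0 of the 7 members with at least 100 UMIs passed 1.5-fold (3.30% of all genes did): Dcn had a ratio of 1.09 (1.04 to 1.13), Lum 1.09 (0.982 to 1.22), Fmod 1.01 (0.849 to 1.21) and Ogn 0.965 (0.827 to 1.13). Bgn had a ratio of 1.19 (1.08 to 1.32), Prelp of 1.16 (1.03 to 1.30) and Omd of 1.19 (0.776 to 1.85). The intervals of Dcn, Bgn and Prelp lay above 1, and those of the other 4 included it. In cluster 12, 0 of 5 members passed (3.73% of genes), and all 5 lay on the same side. Dcn had a ratio of 1.30 (1.25 to 1.35), Bgn 1.31 (1.22 to 1.41), Ogn 1.44 (1.29 to 1.60), Chad 1.31 (1.12 to 1.53) and Prelp 1.14 (0.979 to 1.33). In cluster 2, 1 of 6 passed (2.34% of genes), and Ogn, its first member, had a ratio of 0.962 (0.921 to 1.005).

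Cluster 9 had 3 of 9 members past 1.5-fold, where 3.00% of genes were. Lum was higher in homozygous-labelled cells (ratio 1.70, 1.41 to 2.04), and a Lum UMI was found in 48 of 380 homozygous-labelled and 34 of 351 heterozygous-labelled cells. Epyc was higher as well (ratio 2.94, 1.83 to 4.89), on 81 and 23 UMIs in 27 and 14 cells. Aspn was lower (64.1 and 104 CPM, ratio 0.617, 0.514 to 0.740), and the share of cells with Aspn was 20.8% and 22.5%. In the heterozygous-labelled library 1 cell held 16.8% of the cluster's Aspn UMIs, and with doublets kept the log2 ratio was -0.25, against -0.70 without them. Aspn was lower in cluster 2 too (13.7 and 23.4 CPM, ratio 0.586, 0.426 to 0.805), the 1 member past the fold there. Ogn, the most abundant member of cluster 9, had a ratio of 1.01 (0.969 to 1.06), and Dcn of 1.36 (1.30 to 1.44).

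**Figure D5:**
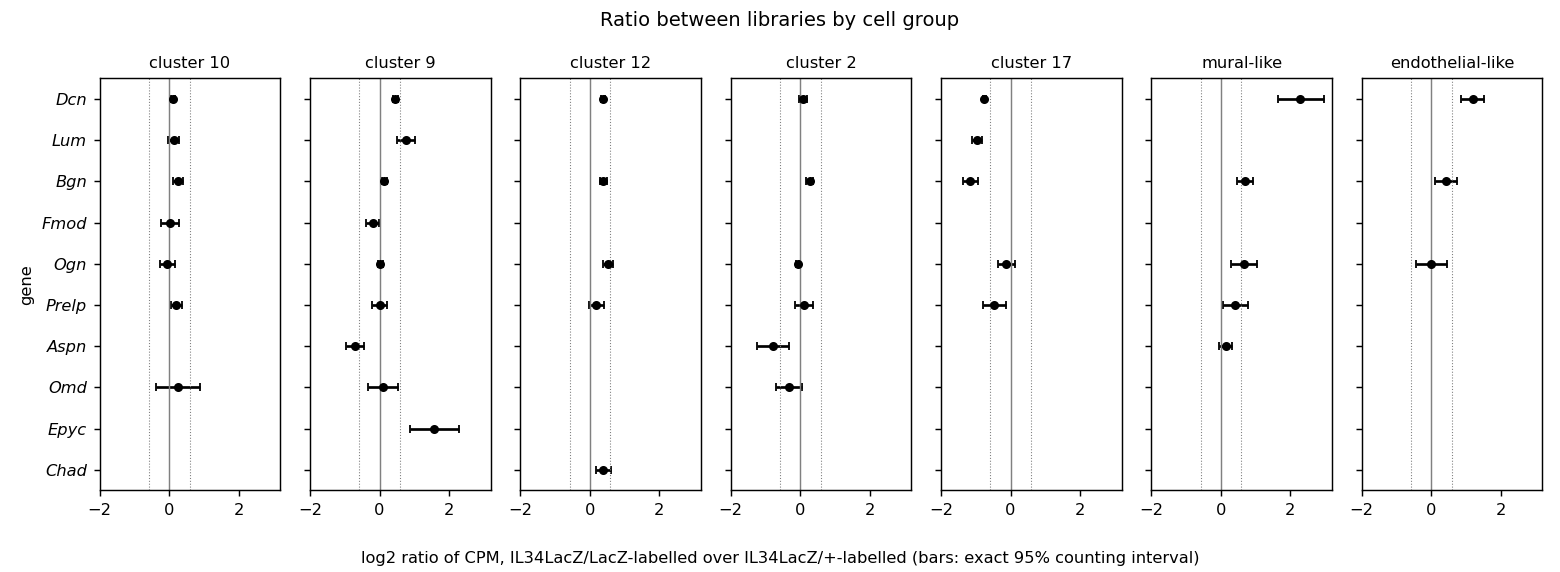
Log2 ratio of CPM, homozygous-labelled over heterozygous-labelled, for each gene with at least 100 UMIs (rows) in 7 groups of cells (panels); bars are exact 95% counting intervals, the solid line marks no difference and the dotted lines 1.5-fold. Points of cluster 10 sit near 0, those of cluster 17 mostly to the left, and Dcn in mural-like cells lies farthest right at 2.27.

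In mural-like cells 3 of 5 members passed 1.5-fold, all higher in the homozygous-labelled library, where 5.32% of the 2896 genes with that count did so in this direction. Bgn had 681 and 422 CPM (ratio 1.61, 1.38 to 1.90) and Ogn a ratio of 1.58 (1.23 to 2.04). Dcn had 225 and 46.5 CPM (ratio 4.84, 3.13 to 7.81), with 33.3% of the homozygous-labelled Dcn UMIs in 1 cell. Aspn had a ratio of 1.10 (0.966 to 1.25), but in subclusters 0, 1 and 3 its level was lower in homozygous-labelled cells. The sum of the 10 fibroblast markers, all detected, was also higher, at 869 and 612 CPM, by different amounts for the single markers. Slc6a13 was at 104 and 40.4 CPM, Col1a2 at 317 and 249 CPM and Col3a1 at 164 and 101 CPM. On fewer UMIs, Col1a1 had 22.7 and 10.1 CPM and Col6a1 32.9 and 16.2 CPM. Pcolce was nearly level (122 and 115 CPM). Col6a2 had 34.1 and 38.4 CPM on 30 and 19 UMIs (ratio 0.888, 0.483 to 1.67). The smooth muscle genes Acta2 (492 and 1012 CPM) and Tagln (296 and 944 CPM) were lower in homozygous-labelled cells, and the part of either in the members' ratios was not tested. Without the subclusters led by endothelial, choroid plexus or macrophage genes, an alternative chosen after seeing the data, the log2 ratio of the sum was 0.23, against 0.53 with them. With no more than 5% mitochondrial UMIs it was 0.0133, and both Bgn (0.37) and Ogn (0.0269) were then within 1.5-fold, as they were after thinning (0.44 and 0.41).

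In endothelial-like cells 1 of 3 members passed (2.62% of genes). Dcn was higher in homozygous-labelled cells (ratio 2.28, 1.82 to 2.88), while Bgn had a ratio of 1.35 and Ogn of 1.004. Much of the Dcn lay in few cells: 1 cell held 68 of the 245 homozygous-labelled UMIs. In cluster 16, the fenestrated-type cluster led by Plvap, Igfbp3 and Esm1, Dcn was at 166 and 17.3 CPM. It had 89 UMIs there over both libraries, under the count asked of a member for a fold. Whether the cell with 68 UMIs lay in cluster 16 was not tested. In cluster 4, led by Gkn3, Ly6c1 and Ly6a, Dcn was at 28.9 and 33.8 CPM. Fibroblast markers summed to 147 and 109 CPM in endothelial-like cells, all 10 detected, and their part in the ratios was not tested. In ependymal-like cells Dcn alone of 3 members passed (2.80% of genes), with 42.7 and 14.9 CPM and 83 of 127 homozygous-labelled UMIs in 1 cell, and Prelp had a ratio of 1.12 (1.01 to 1.25). In choroid plexus cells 3 of 5 passed (3.30% of genes in this direction), Dcn, Bgn and Fmod, none above 14.1 CPM in either library, and all 3 turned direction at a mitochondrial limit of 5%. By contrast Prelp had a ratio of 1.01 (0.942 to 1.08) and Ogn 0.969 (0.865 to 1.08).

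The mixed cluster 17 ran the other way. Dcn, Lum and Bgn, 3 of 5 members, were lower in homozygous-labelled cells, where 11.7% of genes were. Dcn had 9481 and 16074 CPM (ratio 0.590, 0.573 to 0.607), Lum a ratio of 0.512 (0.465 to 0.564) and Bgn of 0.449 (0.388 to 0.519). Allowing 20% mitochondrial UMIs put Dcn on the opposite side, at a log2 ratio of 0.0555. The same setting took Lum to -0.14 and Bgn to -0.24, against -0.97 and -1.15 as reported, so none of the 3 stayed past the fold. The 10 fibroblast markers summed to 3256 and 8819.7 CPM in this cluster and the 10 erythroid markers to 43340.2 and 9724 CPM. In its bone-like part, subcluster 6, the ratio of Dcn was 0.849 (0.825 to 0.874) and that of Lum 0.836 (0.762 to 0.917). Epyc, on 100 and 7 UMIs, was higher in homozygous-labelled cells of subcluster 6 (ratio 10.1, 4.74 to 25.9). Few cells lie behind this: in cluster 17, 78 homozygous-labelled Epyc UMIs lay in 12 cells and all 4 heterozygous-labelled ones in 1 cell. The interval counts UMIs and does not cover the spread between cells.

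Of the genes that work with these proteins, those with at least 100 UMIs in fibroblast-like cells stayed under 1.5-fold. Over all genes 2.97% passed, so a 0 among the few genes of a list is near that share and is no result about the list. Of 13 collagen genes, 12 had at least 100 UMIs and 0 passed, with a median ratio of 1.04: Col1a2 had 2311 and 2189 CPM, Col1a1 1538 and 1496 CPM and Col12a1 812 and 836 CPM. Of 22 enzymes that build the linker and the chondroitin or dermatan sulfate chains, 17 had at least 100 UMIs and 0 passed. Dse, an epimerase that makes dermatan sulfate, had 174 and 162 CPM, Chpf 73.00 and 58.4 CPM, and B3gat3, which completes the linker, 50.04 and 50.98 CPM. Of 7 keratan sulfate enzymes 4 had at least 100 UMIs and 0 passed, with B4galt1 at 82.3 and 98.7 CPM, B4galt4 at 19.7 and 24.1 CPM and B3gnt2 at 21.8 and 19.9 CPM.

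Of 13 proteases and their enhancers 8 had at least 100 UMIs and 0 passed: Htra1 had 448 and 499.7 CPM, Pcolce, an enhancer of procollagen processing, 465 and 462 CPM, and Adamts1 338 and 244 CPM. Of 15 receptors and growth factors 13 had at least 100 UMIs and 0 passed, with Lrp1 at 618 and 560.3 CPM, Bmp4 at 206 and 172 CPM and Egfr at 175 and 203 CPM. Of 10 larger proteoglycans 7 had at least 100 UMIs and 0 passed, with Sdc4 at 283 and 279.8 CPM, Sdc2 at 247 and 241 CPM and Gpc3 at 219 and 211 CPM. Of 8 further small leucine-rich proteoglycans 3 had at least 100 UMIs and 0 passed: Ecm2 at 70.8 and 65.4 CPM, Podn at 59.2 and 59.3 CPM and Tsku at 21.05 and 24.9 CPM. Ecm2, the gene next to Aspn, shared its place in mural-like cells, at 820 and 620.3 CPM there and 75.9 and 67.6 CPM in endothelial-like cells. Below 100 UMIs, and named after their values were seen, the protease gene Mmp3 had 41 UMIs in homozygous-labelled and 0 in heterozygous-labelled fibroblast-like cells, and Acan, which encodes the cartilage proteoglycan aggrecan, 50 and 7 UMIs (ratio 4.80, 2.17 to 12.6). Kera, Podnl1 and Nyx had 0 UMIs in fibroblast-like cells, which allows up to 0.442 and 0.656 CPM.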

How the data were processed

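Single cells of 2 libraries, 1 per genotype, were analysed. The deposited files are matrices of UMI counts (genes by barcodes), which the file headers credit to Cell Ranger 5.0.0, and the submitters' processing notes name the build GRCm38.p6 (mm10). No barcode had under 500 UMIs, and 103 barcode sequences occurred in both libraries (0.600% of the smaller).

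The filter asked for 1000 UMIs, 500 genes and a mitochondrial share of no more than 10%. Scrublet, run per library at an expected rate of 10%, marked 1193 (6.33%) of homozygous-labelled and 1073 (6.25%) of heterozygous-labelled barcodes as doublets, which were removed. Log-scaled counts of 2000 variable genes without the 10 members, 30 principal components, 20 nearest neighbours and Leiden clustering (resolution 1, seed 1) gave the clusters, with no integration of the libraries. Clusters were named from marker lists that hold no member: a mean log2 enrichment of 1, 3 markers enriched 2-fold and a lead of 0.5 over the next type were asked for. The type's markers also had to outnumber those of any other type among the 10 or the 50 leading genes of the cluster. The 6 unnamed clusters failed on this last rule alone. Fibroblast-scored and mural-like cells were each subclustered. Names are rebuilt here and need not be those of the study.

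Levels are summed UMIs per 1000000. Ratios carry exact conditional binomial intervals, and where a gene has no UMI the limit is that of 3 counts. A member counts as past a fold only with 100 UMIs over both libraries. The named genes are the 10 members, the 3 of each list with the most UMIs in fibroblast-like cells and those past 1.5-fold there, the 3 most like each member with over 1000 UMIs, and the leading genes of clusters. Other genes were named after their values were seen. The members and lists were chosen with earlier results of these data known. Other limits on mitochondrial share and UMIs, doublets kept, other resolutions, TMM scaling, thinning and other weights of cells or clusters were tried. The ratio step was tested on simulated data. The software comprised Python 3.11.15, numpy 2.4.6, scanpy 1.11.5, scipy 1.17.1, igraph 0.11.9, leidenalg 0.10.2, scikit-learn 1.9.0, matplotlib 3.10.9, and edgeR 4.0.16 under R 4.3.3 for TMM factors.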

Additional observations from a re-analysis of the deposited data

Results flagged for a closer look

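Dcn, Lum and Bgn passed 1.5-fold in opposite directions in different groups of cells. The log2 ratio of Dcn, homozygous-labelled over heterozygous-labelled, was 2.27 in mural-like, 1.19 in endothelial-like, 1.52 in ependymal-like and 0.60 in choroid plexus epithelial-like cells, and -0.76 in the mixed cluster 17. The log2 ratio of Bgn was 0.69 in mural-like and 1.09 in choroid plexus epithelial-like cells and -1.15 in cluster 17. The log2 ratio of Lum was 0.76 in cluster 9 and -0.97 in cluster 17. With a mitochondrial limit of 20%, Dcn, Lum and Bgn in cluster 17 were within 1.5-fold, and with a limit of 5% Bgn was in mural-like cells, while Dcn and Bgn turned direction in choroid plexus epithelial-like cells. The difference between groups of cells was not tested, since each ratio comes from the same 2 libraries.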

How the results depend on the processing

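No paired analysis was possible because each genotype has 1 library. Of 65 log2 ratios of single genes or sums, recomputed into 821 values under up to 14 other settings each, 661 stayed within the counting interval of the reported value and 749 kept its direction. Among the 19 past 1.5-fold, 236 of 242 values kept the direction. The 6 that turned were, at a mitochondrial limit of 5%, Dcn (-1.44), Bgn (-0.20) and Fmod (-0.44) in choroid plexus epithelial-like cells, with doublets kept Dcn in the same cells (-0.80), and at a limit of 20% Dcn (0.056) and the sum of the members (0.054) in cluster 17. The summed log2 ratio in fibroblast-like cells, reported as 0.33, was 0.12 at the 5% limit, 0.22 at the 20% limit, 0.30 from 500 UMIs per cell, 0.39 from 2000 UMIs, 0.26 at resolution 0.5, 0.30 with members among the variable genes, 0.39 after thinning and 0.21 with equal weight per cluster. In mural-like cells, reported as 0.53, it was 0.013 at the 5% limit, 0.39 from 500 and 0.74 from 2000 UMIs, 0.27 with doublets kept, 0.41 at resolution 2, 0.39 with members among the variable genes, 0.31 with equal weight per cell and 0.23 without the mixed subclusters. In endothelial-like cells, reported as 0.67, it was 0.98 with equal weight per cluster and 0.40 without the richest cell of each gene and library. The last 2 alternatives named, without mixed subclusters and without the richest cell, were added after the data were seen. The count of members past 1.5-fold in fibroblast-like cells, reported as 3, was 1 at the 5% limit, with equal weight per cell or per cluster, after thinning, and at a fold of 2. The highest fibroblast cluster held for 4 of 10 members at the 5% limit. A cluster without a match under that limit was left out, so this count does not show a change of order. The highest class held for 10 of 10 in every setting but equal weight per cell, with 9. Equal weight per cluster was left out of the count of highest fibroblast clusters. For the ratio of a single cluster, or of a class made of a single cluster such as mural-like or ependymal-like cells, it returns the reported value. Such values could not move or turn, and they are among the 661, the 749 and the 236. The median mitochondrial share in fibroblast clusters 2, 9, 10 and 12 was 5.87% to 7.85%, so the 5% limit removed most of their cells. The cause of the shifts, at this limit or under other settings, was not tested. Depth limits Epyc and Chad, with 274 and 903 UMIs in the kept cells.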
